A study of Mus musculus with 20 samples.

Results

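The genes described here carry the Nduf name, which stands for subunits of NADH:ubiquinone oxidoreductase, the respiratory chain's complex I, and for factors that build it. Membership was set by symbol alone, though this set of genes was chosen with earlier results of these data known. A gene was a member when a probe set named it as its single gene and the symbol started with Nduf, and each gene was read from its brightest probe set by mean over the 20 arrays. This gave 39 genes of 12393 with a single symbol on the array. The RNA came from skeletal muscle of 20 mice, 1 Affymetrix array per mouse, in 4 groups of 5: trained mice labelled transgenic, untrained mice labelled transgenic, trained wild-type mice and untrained wild-type mice. The transgene is given as over-expression of MHC-I, and training as endurance training. The promoter and host line of the transgene, the strain, age and sex of the mice, the muscle and the training protocol are facts not given in the sources used here. Mice are named by their sample titles, in which TGT and TGUT stand for trained and untrained transgenic mice and WTT and WTUT for trained and untrained wild-type mice.

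Complex I takes electrons from NADH, passes them along a flavin and a chain of iron-sulfur clusters to ubiquinone, and couples this to pumping protons across the inner mitochondrial membrane. Its matrix arm holds the N module, which oxidises NADH, and the Q module, which reduces ubiquinone, and its membrane arm has a proximal and a distal part. The core of the membrane arm is encoded by mitochondrial DNA under other names, and most Nduf genes encode accessory subunits that surround the cores. These roles were worked out mainly on bovine, human and mouse enzyme. Skeletal muscle depends on complex I for oxidative work, and endurance training is known to raise the amount of mitochondria in muscle.

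Of the 39 members, 36 had a promoter, from 250 bases before to 50 after the start, in the RefSeq table of mouse build GRCm38.p6. The 3 others were Ndufa2, Ndufb9 and Ndufs1. The 5 promoters below belong to the member with the largest training difference (Ndufb10), to members that rose with training and hold a motif (Ndufa8, Ndufb7 and Ndufb8), and to the member with the smallest difference (Ndufb2). Each is written 5′ to 3′ on the gene's strand, and capitals mark a motif match.
Ndufb10 (chr17:24724374-24724673, minus strand): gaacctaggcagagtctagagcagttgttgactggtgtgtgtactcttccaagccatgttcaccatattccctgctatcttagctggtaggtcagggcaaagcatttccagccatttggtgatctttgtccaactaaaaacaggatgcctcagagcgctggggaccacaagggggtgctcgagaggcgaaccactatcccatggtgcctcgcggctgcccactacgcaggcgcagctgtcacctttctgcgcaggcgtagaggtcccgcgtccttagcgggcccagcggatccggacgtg
Ndufa8 (chr2:36049289-36049588, minus strand): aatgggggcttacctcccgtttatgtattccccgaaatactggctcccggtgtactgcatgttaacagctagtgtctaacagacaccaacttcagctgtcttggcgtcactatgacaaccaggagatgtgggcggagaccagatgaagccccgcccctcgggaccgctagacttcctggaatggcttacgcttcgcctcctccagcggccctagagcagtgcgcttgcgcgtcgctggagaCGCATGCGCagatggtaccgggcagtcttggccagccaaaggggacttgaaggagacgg
Ndufb7 (chr8:83566508-83566807, plus strand): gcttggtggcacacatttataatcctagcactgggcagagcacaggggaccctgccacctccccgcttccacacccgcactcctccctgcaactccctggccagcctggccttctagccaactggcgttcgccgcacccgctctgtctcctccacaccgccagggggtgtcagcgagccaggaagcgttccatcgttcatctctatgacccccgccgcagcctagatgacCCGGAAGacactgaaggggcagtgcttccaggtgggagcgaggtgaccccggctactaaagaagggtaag
Ndufb8 (chr19:44555393-44555692, minus strand): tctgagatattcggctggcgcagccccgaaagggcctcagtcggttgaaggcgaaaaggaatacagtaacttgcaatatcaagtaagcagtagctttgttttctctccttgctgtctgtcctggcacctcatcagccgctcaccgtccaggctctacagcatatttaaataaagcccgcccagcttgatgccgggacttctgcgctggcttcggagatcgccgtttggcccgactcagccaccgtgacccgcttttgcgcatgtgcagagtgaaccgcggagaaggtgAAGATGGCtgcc
Ndufb2 (chr6:39592315-39592614, plus strand): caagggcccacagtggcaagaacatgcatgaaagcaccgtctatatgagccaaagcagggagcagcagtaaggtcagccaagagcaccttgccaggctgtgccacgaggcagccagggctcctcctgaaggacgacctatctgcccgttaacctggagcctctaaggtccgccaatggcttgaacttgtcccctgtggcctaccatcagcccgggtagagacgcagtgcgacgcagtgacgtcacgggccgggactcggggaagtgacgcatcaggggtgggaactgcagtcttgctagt
The 4 motifs searched, on both strands, were GCGCATGCG for nuclear respiratory factor 1, CCGGAAG for GA-binding protein, AAGATGGC for YY1 and TCAAGGTCA for the estrogen-related receptors, all factors known to act on nuclear genes for mitochondria. The capitals mark the reverse complement of the first in Ndufa8, the second in Ndufb7 and the third in Ndufb8. For members and all other genes alike, only the first promoter listed for each gene symbol was read. AAGATGGC stood in 6 of 36 member promoters, 16.7% against 2.88% of the 27025 promoters read in this way. In all 6 (Ndufa3, Ndufa9, Ndufb8, Ndufc1, Ndufs4 and Ndufs7) it ran on the gene's own strand and began between 23 and 39 bases after the start. GCGCATGCG stood in 3 (8.33% against 1.81%), in Ndufa8, Ndufaf4 and Ndufaf5. Since these letters read almost alike on both strands, the same place in Ndufaf4 and in Ndufaf5 matched on both. CCGGAAG stood in 5 (13.9% against 9.12%), and TCAAGGTCA in 0 (against 0.407%). Any of the 4 stood in 4 of the 16 members that rose with training and have a promoter here, and in 10 of the 20 that were not called. A match is only a run of letters, and these shares were not tested.

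The arrays carried the values of muscle: Acta1, skeletal actin, read between 17504 and 18805 on all 20. The genes that could check the transgenic label did not separate the groups in its direction. H2-K1, a class I histocompatibility heavy chain, read 737 to 1750 in the 10 mice labelled transgenic and 784 to 1753 in the 10 wild-type mice. Myh7, the slow myosin heavy chain that the abbreviation MHC-I can also stand for, averaged 434 intensity in the mice labelled transgenic and 1257 in wild-type mice. All comparisons by genotype below therefore follow the labels. Those by training rest on titles and source names as well, since the description shared by all samples calls each of them transgenic and trained. The labels give no batch. Empty cells were few except on TGT-133, with 386, and wtt-137, with 822 of 22690. In bulk muscle, fewer cells of a type and less RNA per cell cannot be told apart.

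Part of the Nduf transcripts rose with training and none fell. Averaged over both genotypes, 17 of the 39 members were called higher and 0 lower, by limma's moderated test with Benjamini-Hochberg adjustment over all 13576 probe sets tested and a call at an adjusted p of 0.05. The background of probe sets called higher was 2.41%. All 39 members were tested, and all 39 differences lay above 0 (38 after quantile normalization, where Ndufb2 turned), against 50.7% of all probe sets tested. The median member difference was 0.15 on the log2 scale, or 10.9%, against 0.0019 over all probe sets tested. The differences ran from 0.0020 for Ndufb2 to 0.39 for Ndufb10, and the 95% interval lay above 0 for 32 members and below 0 for none. Values were taken as log2(intensity + 66.7), a constant that slightly shrinks changes of dim probe sets. Leaving out mice 1 at a time, the count of members called ran between 11 and 21, and 11 of the 17 were called in all 20 such fits. The count was 11 without any 1 of TGT-128, TGT-140, TGUT-139, wtt-137 and WTUT-135.

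**Figure D1:**
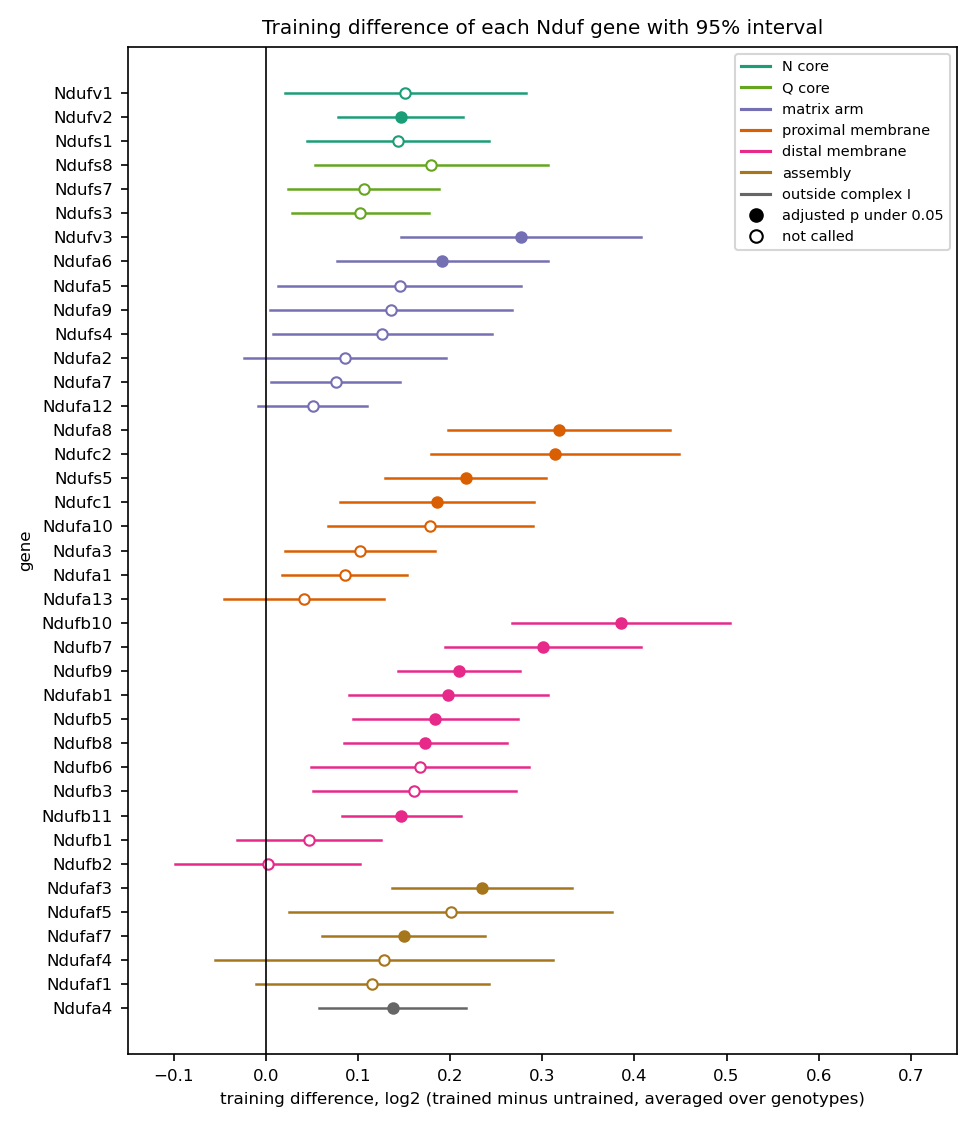
Training difference of each of the 39 Nduf genes in log2 units (x axis, trained minus untrained, averaged over genotypes), as a point with its 95% interval, ordered by role and coloured by it. Filled points are the 17 members called at an adjusted p of 0.05, and every point lies to the right of 0, with Ndufb2 closest to it.

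The 3 core subunits of the N module differed by nearly the same amount, 0.14 to 0.15 log2, and 1 of them was called. Ndufv2, which carries an iron-sulfur cluster next to the flavin, read 5322, 5156, 4932, 5334 and 5581 in trained transgenic mice, compared with 4629.8, 4519, 5082, 4815 and 4687 in untrained transgenic mice. It read 5207, 5318, 5397, 4985 and 4731 in trained wild-type mice, compared with 4573, 4462, 4839.9, 4704 and 4547 in untrained wild-type mice. The groups overlapped only through the lowest trained mouse and the highest untrained mice of each genotype: TGT-133 stood below TGUT-145, and WTT-144 below WTUT-136. Ndufv2 rose by 10.7% (log2 0.15, SE 0.032, adjusted p = 0.0174). Ndufs1, the largest subunit of the matrix arm and holder of several iron-sulfur clusters, read 2990.3, 2969.5, 2592, 3071 and 2975 in trained transgenic mice, compared with 2571, 2382, 2989.6, 2506 and 2804 in untrained transgenic mice. It read 2977, 3143, 2952, 3029 and 2610.2 in trained wild-type mice, compared with 2491, 2531, 2769, 2677 and 2758 in untrained wild-type mice. TGT-133 and WTT-144 were the lowest trained mice, and TGT-132, TGT-133 and TGT-143 all lay below TGUT-145. Its difference of 0.14 (SE 0.047) did not pass, at an adjusted p of 0.0803. Ndufv1, which binds NADH and the flavin, read 3044, 3141, 2866, 3308 and 2763 in trained transgenic mice, compared with 2765, 2297, 3007, 2236 and 3176 in untrained transgenic mice. It read 3231, 3122, 2769.6, 3243 and 2932 in trained wild-type mice, compared with 2508, 2685, 2803, 2848 and 3115 in untrained wild-type mice. It overlapped more widely, since TGUT-147 stood above 4 of the 5 trained transgenic mice and WTUT-142 above 2 trained wild-type mice. Its difference was 0.15 (SE 0.062), with an adjusted p of 0.167.

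The 3 members that are core subunits of the Q module, which hands electrons to ubiquinone, had differences of 0.10 to 0.18 and none was called. Ndufs3, a core protein without an iron-sulfur cluster, read 4326, 4252, 3834, 4344 and 4329 in trained transgenic mice, compared with 3816, 3673, 4067, 3624 and 3862 in untrained transgenic mice. It read 4211, 4025, 4393, 4048 and 3953 in trained wild-type mice, compared with 3631, 3890.4, 4196, 3955 and 4106 in untrained wild-type mice. All trained transgenic mice but TGT-133 stood above every untrained one, while in wild-type mice WTUT-136 exceeded 3 trained mice. Ndufs7, which holds the last iron-sulfur cluster before ubiquinone, read 4954, 4806, 4234, 4834 and 4483 in trained transgenic mice, compared with 4132, 3791, 4449, 3871 and 4560.4 in untrained transgenic mice. It read 4786, 4629, 4507, 4739 and 4395 in trained wild-type mice, compared with 4342, 4214, 4592, 4559 and 4565 in untrained wild-type mice. Both genotypes overlapped. Ndufs8, another iron-sulfur protein, read 2912, 2600.5, 2481, 2781 and 2660.4 in trained transgenic mice, compared with 2250.1, 2307, 2366, 2089.9 and 2472 in untrained transgenic mice. It read 2726, 2643, 2645, 2965 and 2113 in trained wild-type mice, compared with 1941, 2322, 2672, 2469 and 2445 in untrained wild-type mice. Here every trained transgenic mouse stood above every untrained one, and in wild-type mice WTT-144 lay below 4 of 5 untrained mice. The adjusted p was 0.0978 for Ndufs3, 0.120 for Ndufs7 and 0.0882 for Ndufs8.

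Among the 8 members that are accessory subunits of the matrix arm 2 rose, all 8 were above 0 and the median was 0.13. Ndufv3, a small protein on the N module, read 2698, 2585, 2628, 2755 and 2587 in trained transgenic mice, compared with 1933, 1881, 2499, 2142 and 2117 in untrained transgenic mice. It read 2543, 2668, 2980.1, 2734 and 2217 in trained wild-type mice, compared with 1895, 2202, 2509, 2505 and 2050.3 in untrained wild-type mice. All 5 trained transgenic mice stood above all untrained ones, whereas WTT-144 lay below WTUT-136 and WTUT-138. Ndufv3 rose by 21.2% (log2 0.28, SE 0.062, adjusted p = 0.0186). Ndufa6, a protein of the LYR family at the base of the matrix arm, read 3352, 3599.5, 2987, 3802 and 3249 in trained transgenic mice, compared with 3102, 2462, 3186, 2654 and 3172 in untrained transgenic mice. It read 3625, 3315, 3214, 3532 and 3689 in trained wild-type mice, compared with 3291, 3192, 3036, 2799 and 3156 in untrained wild-type mice. Only TGT-133 among the transgenic mice and wtt-137 among the wild-type ones lay among the untrained values. It rose by 14.2% (log2 0.19, SE 0.055) at an adjusted p of 0.0479, and it was called in 3 of the 20 fits that leave out 1 mouse. The 6 others were Ndufa5, Ndufa9, Ndufs4, Ndufa2, Ndufa7 and Ndufa12, with differences of 0.051 to 0.15. Ndufa7 was fitted on 19 arrays, because its cell for TGT-133 is empty.

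Of the 8 members that are accessory subunits of the proximal membrane arm 4 rose and the median difference was 0.18. Ndufa8, a twin-cysteine protein of the intermembrane space whose promoter holds the nuclear respiratory factor 1 letters, read 3392, 3076, 2628, 3047 and 3293 in trained transgenic mice, compared with 2203, 2113, 2709.7, 2266 and 2493 in untrained transgenic mice. It read 3073, 2960.3, 3379, 3210.0 and 2916 in trained wild-type mice, compared with 2241, 2513, 2877, 2807 and 2552 in untrained wild-type mice. The wild-type groups did not overlap, and in transgenic mice the only crossing was between TGT-133 and TGUT-145. It rose by 24.7% (log2 0.32, SE 0.057, adjusted p = 0.00725). Ndufs5, also an intermembrane-space protein, read 1653, 1498, 1445, 1706 and 1602 in trained transgenic mice, compared with 1421, 1271, 1401, 1227 and 1358 in untrained transgenic mice. It read 1611, 1579, 1733, 1747 and 1537 in trained wild-type mice, compared with 1427, 1370.3, 1477, 1414 and 1395 in untrained wild-type mice. Trained and untrained mice were apart within each genotype, by a narrow gap in transgenic mice. Ndufs5 rose by 16.2% (log2 0.22, SE 0.042, adjusted p = 0.00997). Ndufc2, a membrane subunit of the proximal arm, rose by 0.31 (SE 0.064, adjusted p = 0.0127), and its neighbour Ndufc1 by 0.19 (SE 0.051, adjusted p = 0.0392), with Ndufc1 called in 6 of the 20 fits without 1 mouse. The 4 not called were Ndufa10, at 0.18 and an adjusted p of 0.0576, Ndufa3, Ndufa1 and Ndufa13, the last at 0.041.

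The distal membrane arm, the largest role group, had the most calls, 7 of the 11 members that are its accessory subunits. It held both the largest and the smallest difference. Ndufb10, a twin-cysteine protein on its intermembrane face, read 3455, 3043, 2538, 3363 and 3189 in trained transgenic mice, compared with 2361, 2072, 2627, 2201 and 2431 in untrained transgenic mice. It read 3101, 3039, 3301, 3281 and 3252 in trained wild-type mice, compared with 2181, 2439.7, 2778, 2483 and 2437 in untrained wild-type mice. The trained wild-type mice all stood above the untrained ones, and the transgenic groups crossed only at TGT-133 and TGUT-145. It rose by 30.6% (log2 0.39, SE 0.056, adjusted p = 0.00297). Ndufb9, a protein of the LYR family, read 6102, 6159.6, 5678, 6132 and 6006 in trained transgenic mice, compared with 5117, 4642, 5675, 4939.5 and 5123 in untrained transgenic mice. It read 6248, 6107, 6300.3, 6357 and 5978 in trained wild-type mice, compared with 5291, 5330.4, 5632, 5649 and 5395 in untrained wild-type mice. It was the 1 member in which all 10 trained mice stood above all 10 untrained mice, against 0.0737% of the probe sets tested, with TGT-133 at 5678 and TGUT-145 at 5675 the closest pair. It rose by 15.6% (log2 0.21, SE 0.032, adjusted p = 0.00319). The 5 other members called here were Ndufb7 (0.30, adjusted p = 0.00503), Ndufb11 (0.15, adjusted p = 0.0141), Ndufb5 (0.18, adjusted p = 0.0206), Ndufb8 (0.17, adjusted p = 0.0262) and Ndufab1 (0.20, adjusted p = 0.0345). Ndufab1 is the mitochondrial acyl carrier protein, which serves fatty acid synthesis as well as complex I. Ndufb6, Ndufb3 and Ndufb1 had differences of 0.17, 0.16 and 0.047 that did not pass.

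Ndufb2, another subunit of the distal arm, had the smallest training difference of all members. It read 2589, 2639.8, 2394, 2635 and 2625 in trained transgenic mice, compared with 2338, 2295, 2736, 2492 and 2713 in untrained transgenic mice. It read 2432, 2627, 2643, 2526 and 2107 in trained wild-type mice, compared with 2319.7, 2613, 2700.4, 2393 and 2579.9 in untrained wild-type mice. Trained and untrained mice overlapped in both genotypes. Its difference was 0.0020 (SE 0.048, 95% interval -0.098 to 0.10, adjusted p = 0.989), and the sign turned under quantile normalization. The upper limit of this interval lies below the lower limits of Ndufb10, Ndufb7 and Ndufb9 (0.27, 0.19 and 0.14), though the differences between genes were not tested.

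**Figure D2:**
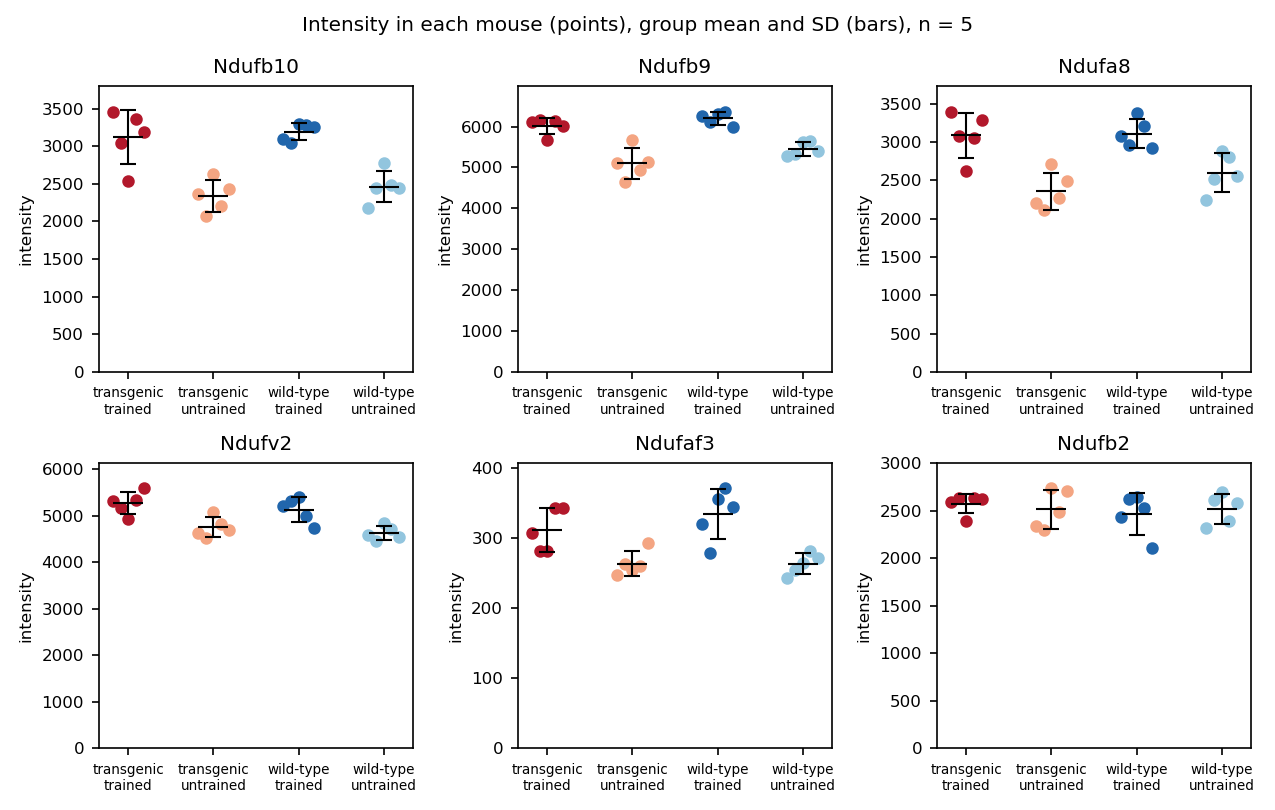
Intensity (y axis, linear and starting at 0) of 6 Nduf genes in each mouse, with 1 point per mouse, the group mean as a dash and the SD as a bar (n = 5 mice). For Ndufb9 all 10 trained mice lie above all 10 untrained mice, and for Ndufb2 the 4 groups overlap.

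Among the 5 members that are assembly factors, proteins that help to build complex I and leave it afterwards, 2 rose. Ndufaf3, which acts with Ndufaf4 on the early Q module, read 307, 282, 282, 344 and 343 in trained transgenic mice, compared with 248, 263, 255, 261 and 293 in untrained transgenic mice. It read 321, 279.7, 356, 371 and 345 in trained wild-type mice, compared with 243, 255, 265, 282 and 272 in untrained wild-type mice. In each genotype the lowest trained mice reached just below the highest untrained mouse. Ndufaf3 rose by 17.7% (log2 0.23, SE 0.047, adjusted p = 0.0112). Ndufaf7, a mitochondrial methyltransferase, read 238, 228, 232, 234 and 229 in trained transgenic mice, compared with 194, 191, 234, 221 and 182 in untrained transgenic mice. It read 239, 244, 284, 226 and 212 in trained wild-type mice, compared with 229, 213, 199, 199 and 205 in untrained wild-type mice. TGUT-145, WTUT-130 and WTUT-135 lay above the lowest trained mouse of their genotype. It rose by 10.9% (log2 0.15, SE 0.042, adjusted p = 0.0469), a call that held in 4 of the 20 fits without 1 mouse. Ndufaf5, Ndufaf4 and Ndufaf1 had differences of 0.20, 0.13 and 0.12 that did not pass. Ndufaf4 and Ndufaf5 were also the members that scattered most within groups, with coefficients of variation up to 20.6% and 21.9%. The median member's was 6.81% in trained and 9.20% in untrained transgenic mice, and 5.28% in trained and 6.31% in untrained wild-type mice.

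Ndufa4 carries the Nduf name but is now counted as a subunit of cytochrome c oxidase, complex IV. It read 4885, 5104, 4533, 5222 and 4617 in trained transgenic mice, compared with 4378, 4034, 4682, 3909.7 and 4518 in untrained transgenic mice. It read 4822, 4986, 4711, 4962 and 4442 in trained wild-type mice, compared with 4379.8, 4586, 4521, 4286 and 4547 in untrained wild-type mice. TGUT-145 lay above 2 trained transgenic mice and WTT-144 below 3 untrained wild-type mice, and the rest were apart. It rose by 10.01% (log2 0.14, SE 0.038, adjusted p = 0.0427), close to the median of the members, and was called in 5 of the 20 fits without 1 mouse.

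Mice differed from each other in the members as a whole. Taking each of the 39 members as a deviation from its mean over all mice, the average per mouse was 0.065 ± 0.080 log2 in trained transgenic mice and -0.11 ± 0.11 in untrained transgenic mice. It was 0.096 ± 0.036 in trained wild-type mice and -0.050 ± 0.053 in untrained wild-type mice (SD, n = 5 each). TGT-133 was the 1 trained mouse below 0, with 10 members above their own mean. TGUT-145 was the 1 untrained mouse above 0, with 23 members above. At the other end, 0 members of TGUT-139 and 38 of TGT-140 and of WTT-141 stood above their own mean. Without the arrays of TGT-133 and wtt-137, the count of members called was 15 and the median difference 0.17.

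**Figure D3:**
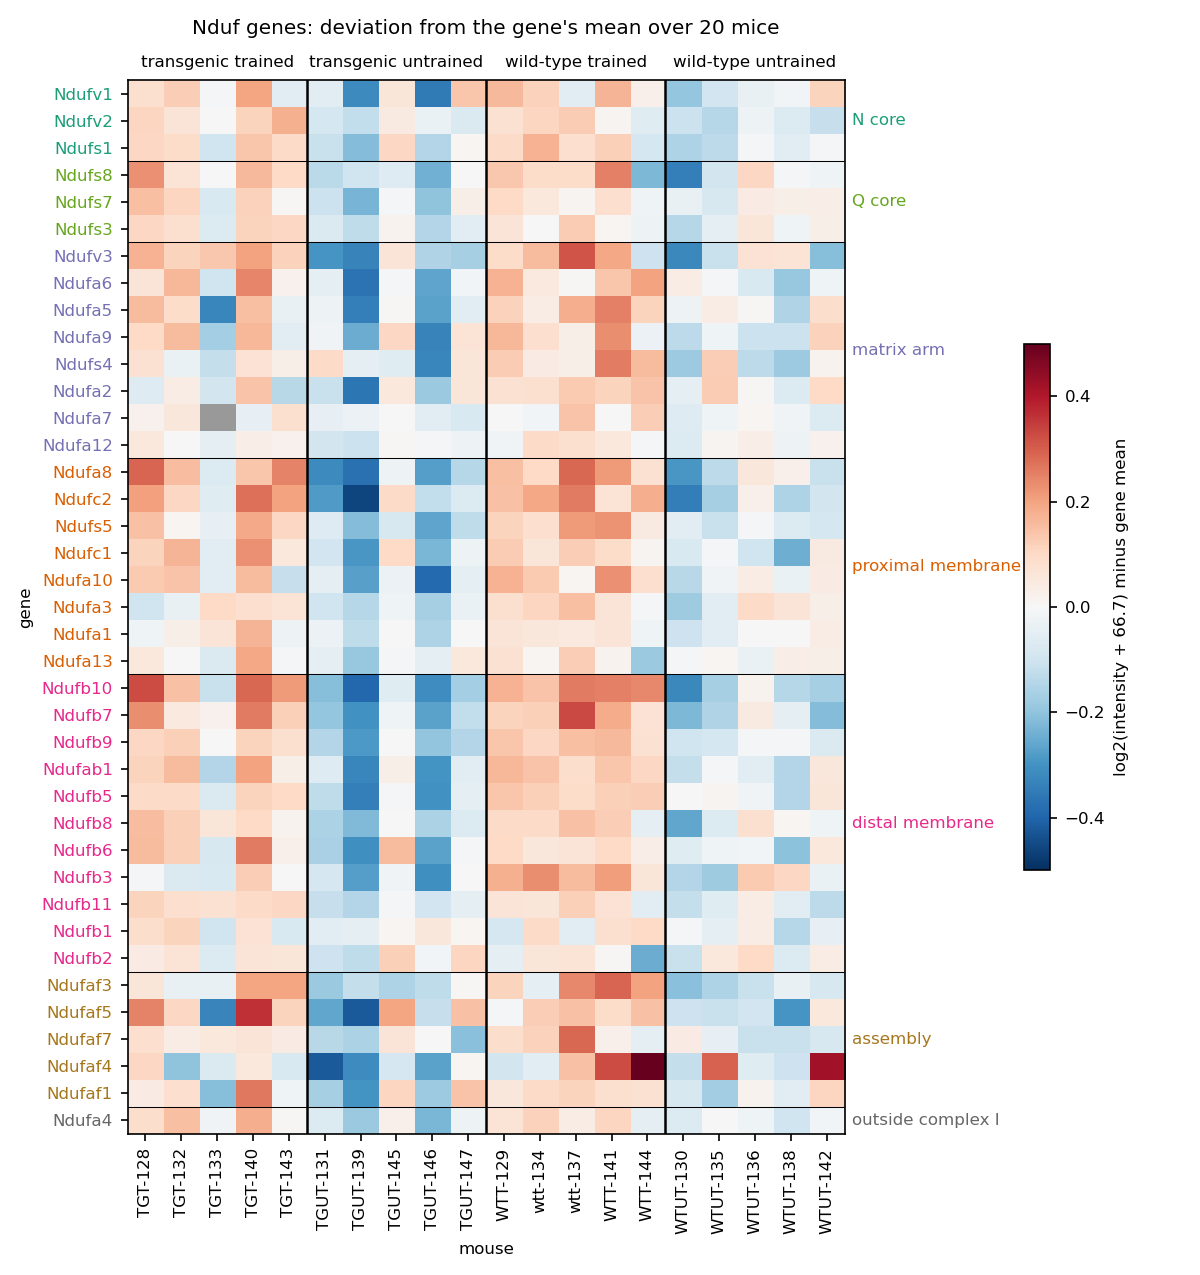
Deviation of each Nduf gene (rows, grouped by role) from its own mean over 20 mice, in log2 units by colour, for each mouse (columns, grouped by genotype and training). Red marks above and blue below the mean, and the grey cell is the empty value of Ndufa7. TGT-133 is mostly blue among trained mice, and TGUT-145 mostly pale or red among untrained mice.

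Of 7 circadian clock genes read beside the members 1 was called for training, the activator Arntl, which fell. Arntl averaged 97.2 ± 39.2 intensity in trained and 248.95 ± 68.0 in untrained transgenic mice, and 192 ± 123 in trained and 345 ± 147.1 in untrained wild-type mice (SD, n = 5 each). Its training difference was -0.84 (limma, adjusted p = 0.0250). A clock score, the mean deviation of the 2 activators Arntl and Clock minus that of the 5 output genes Dbp, Tef, Per3, Nr1d1 and Nr1d2, averaged -0.60 ± 0.34 in trained and 0.056 ± 0.42 in untrained transgenic mice. It averaged -0.038 ± 0.53 in trained and 0.59 ± 0.21 in untrained wild-type mice (SD, n = 5 each). TGUT-145, the untrained mouse with the highest member mean, had the lowest clock score of its group, -0.62. WTT-141 went the other way, with both the highest member mean, 0.13, and the highest clock score, 0.59, of its group. TGT-133, the trained mouse with the lowest member mean, scored -0.57, inside the range of the other trained transgenic mice. With the score as a covariate the median member difference was 0.13, with 37 of 39 above 0 and 17 at an unadjusted p under 0.05. Of the 17 called members, 5 had differences more than 1.5 times smaller with the covariate: 0.038 for Ndufaf7, 0.075 for Ndufv2, 0.15 for Ndufv3, 0.19 for Ndufc2 and 0.19 for Ndufb7. The other called members had smaller differences too, such as Ndufb10 (0.32 against 0.39), Ndufa8 (0.23 against 0.32) and Ndufb9 (0.17 against 0.21). The exceptions were Ndufa6, which was larger (0.21 against 0.19), and Ndufa4, which stayed at 0.14. Members not called went both ways. Ndufa10 (0.22 against 0.18) and Ndufs4 (0.21 against 0.13) were larger, and Ndufaf5 (0.10 against 0.20) and Ndufs3 (0.054 against 0.10) smaller. No member and no other probe set then passed the adjusted threshold. The median SE of the members was 0.064 with the covariate and 0.051 without it. The time of day at which muscle was taken is not given in the sources used here. Since the mean score was lower in trained mice of both genotypes, this fit cannot tell the clock's part from that of training. The clock's part in the result was not tested.

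**Figure D4:**
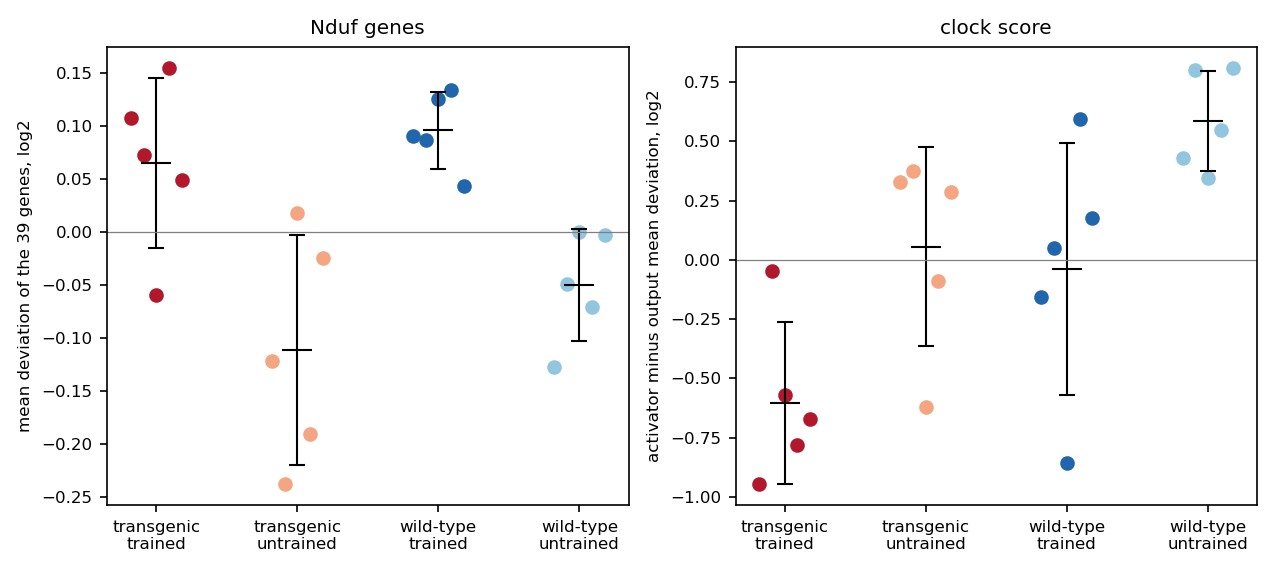
Left, mean deviation of the 39 Nduf genes in log2 units in each mouse. Right, clock score (activator minus output genes, log2) in each mouse. Points are mice, dashes group means and bars SDs (n = 5 mice), and the trained groups lie higher on the left and lower on the right than the untrained groups of the same genotype.

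Training was also compared within each genotype. In transgenic mice 3 members rose, Ndufb9 (0.24, adjusted p = 0.0383), Ndufb10 (0.40, adjusted p = 0.0453) and Ndufa8 (0.38, adjusted p = 0.0497), against a background of 0.133%. All 39 differences were above 0 and their median was 0.18, or 12.9%. The count depended on single mice. It was 0 without any 1 of TGT-128, TGT-132, TGT-140, TGT-143, TGUT-131, TGUT-139, TGUT-147, WTT-129, wtt-134 and WTUT-135. It was 15 without TGUT-145, and 5 without either wtt-137 or WTT-144. It was also 0 with arrays centred on their medians, with no filter on dim probe sets, and with the 2 transgenic groups fitted alone. In wild-type mice limma called 0 members and 0% of all probe sets. At an unadjusted p under 0.05, 19 members were higher there and 0 lower, against 4.74% of all probe sets tested being higher. Of the wild-type differences 38 were above 0, with a median of 0.15, or 10.6%, and Ndufb2 at -0.033. All 5 trained stood above all 5 untrained mice for 7 members in transgenic mice, against 1.19% of the probe sets tested, and for 8 members in wild-type mice, against 1.83%. Ndufb7, Ndufb9 and Ndufs5 were on both lists.

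The difference between the training effects, transgenic minus wild-type, was tested as an interaction. No member was called (background 0%), and 0 members reached an unadjusted p of 0.05, against 2.91% of all probe sets. The median interaction was 0.036, with 26 of 39 above 0. The 2 with the smallest p were the Q module subunits Ndufs7 (0.11, SE 0.079, unadjusted p = 0.163) and Ndufs3 (0.084, SE 0.071, unadjusted p = 0.254), with an adjusted p of 0.9999 for both. Ndufs7 differed with training by 0.16 in transgenic and 0.049 in wild-type mice, and Ndufs3 by 0.14 and 0.061. The 95% intervals over the members reached from -0.37, for Ndufs4, to 0.47, for Ndufaf4. Both had a training difference of 0.13, and interactions of that size lie inside their intervals, for Ndufs4 only on the negative side. For Ndufb10, with an interaction of 0.032, the interval ran from -0.20 to 0.27, short of its training difference of 0.39. The upper limits of Ndufb7 (0.25) and Ndufb9 (0.19) also lay below their training differences (0.30 and 0.21).

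**Figure D5:**
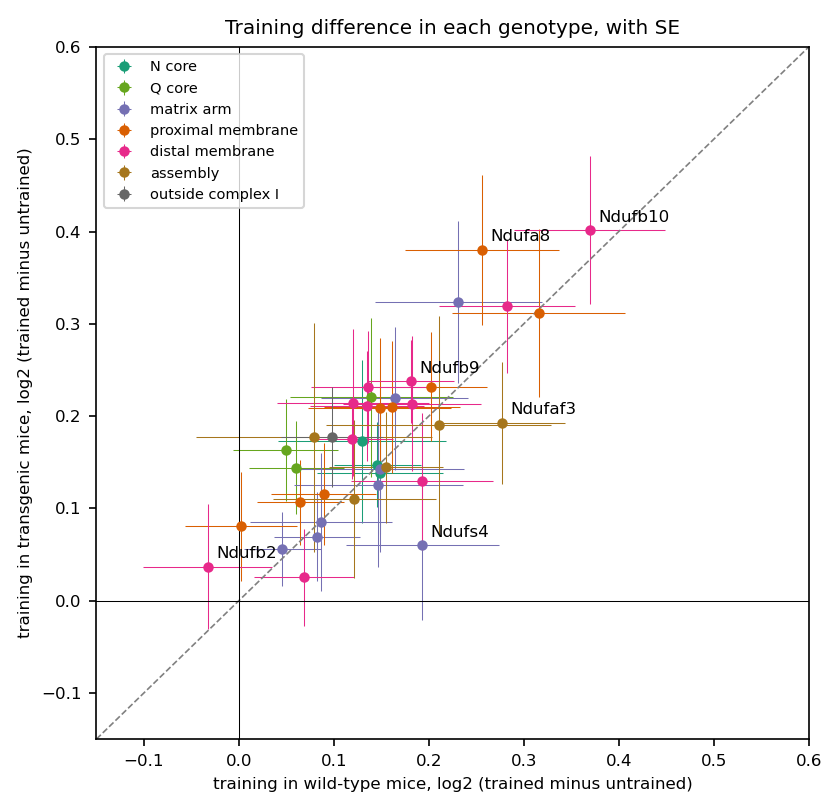
Training difference of each of the 39 Nduf genes in wild-type mice (x axis) and in transgenic mice (y axis), both in log2 units with SE bars, coloured by role. The dashed line marks equal differences. Ndufb10 lies at the upper right in both genotypes, Ndufb2 near 0 in both, and 26 of 39 genes lie above the line.

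The transgenic label went with no called difference in the members. Averaged over training, 0 of 39 were called, against 1.23% of all probe sets, and 5 reached an unadjusted p under 0.05, against 17.3%. The median difference, transgenic minus wild-type, was -0.038 with 6 of 39 members above 0, but after quantile normalization it was 0.024 with 26 above 0. In untrained mice 0 were called, against 0.11% (3 at an unadjusted p under 0.05, against 8.12%), and in trained mice 0, against 0.0516% (1, against 12.5%). The averaged 95% intervals reached from -0.44, for Ndufaf4, to 0.19, for Ndufaf5. The 2 members with the smallest p were Ndufaf4 and Ndufb3. Ndufaf4, the assembly factor paired with Ndufaf3, read 469, 367, 406, 449.9 and 405 in trained transgenic mice, compared with 400.4, 411, 484, 557 and 639 in trained wild-type mice. It read 305, 334, 403, 347 and 434 in untrained transgenic mice, compared with 392, 544, 411, 396 and 599 in untrained wild-type mice. The highest values, 599 and 639, were both in wild-type mice, and the groups overlapped in each training state. Its difference was -0.25 (SE 0.088, adjusted p = 0.148). Ndufb3, a distal-arm subunit, read 2220.2, 2113, 2112, 2432 and 2223 in trained transgenic mice, compared with 2526, 2632, 2496, 2586 and 2323 in trained wild-type mice. It read 2099.7, 1831, 2197, 1788 and 2233 in untrained transgenic mice, compared with 2004, 1959.8, 2444, 2396 and 2178 in untrained wild-type mice. Its difference was -0.14 (SE 0.053, adjusted p = 0.174), and the groups overlapped here too. Over the same contrast 6 of 7 slow-fibre genes, which mark the fibre type with slow myosin, fell in mice labelled transgenic, with a list median of -1.51. The summed level of that list was 2894 to 4139 in trained and 2809 to 5497 in untrained transgenic mice, and 7063 to 14948 in trained and 5013 to 17324 in untrained wild-type mice. The part of this shift in the members' values was not tested.

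Several probe sets of the same gene gave a check within the arrays. Of the 39 members 20 had more than 1 single-gene probe set, with 35 further ones, of which 31 were tested. Their training differences were above 0 for 30 of 31, with a median of 0.17 and 8 called higher. Where the probe set used was called and another was tested, in 8 genes, another was also called in 7. These readings share the RNA and the arrays, so they are no replicates. With the next brightest probe set for those genes, the median over the 39 members was 0.17.

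Genes of the same respiratory entry points were read from lists. Complex II, succinate dehydrogenase, feeds electrons to ubiquinone beside complex I, and 4 of its 7 tested genes rose and 0 fell, with a median of 0.20. The 2 with the smallest p were its assembly factors Sdhaf4, at 0.58 (SE 0.10, adjusted p = 0.00528), and Sdhaf1, at 0.34 (SE 0.064, adjusted p = 0.00934). The others called were the subunits Sdhd and Sdhb. Assembly factors of complex I without the Nduf name had 2 of 11 higher, Timmdc1 (0.15, adjusted p = 0.0225) and Lyrm2 (0.17, adjusted p = 0.0313), with 10 of 11 above 0 and a median of 0.095. Of 7 genes of other dehydrogenases that reduce ubiquinone, or of the electron transfer flavoprotein that feeds 1 of them, 0 were called, with 5 above 0 and a median of 0.034. Of 8 general mitochondrial genes 1 rose, citrate synthase Cs (0.14, adjusted p = 0.0341), with 6 above 0 and a median of 0.074. Against the members' median of 0.15, these lists lay on either side, and no difference between lists was tested.

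Markers of tissue makeup were read beside the training result. Of 12 skeletal muscle markers 1 was called, the fast myosin Myh1, at 0.21 (adjusted p = 0.0303). Of 7 slow-fibre genes 0 were called for training, with a median of -0.048. Of the fibroblast list 1 of 4 tested was called, the collagen gene Col3a1, at 1.02 (adjusted p = 0.0400), while the list's summed level was 4416 to 6392 in trained and 5139 to 5892 in untrained transgenic mice, and 4717 to 6214 in trained and 3372 to 5743 in untrained wild-type mice. None of the 3 tested adipocyte, 4 macrophage and leukocyte, 2 erythroid, 4 endothelial, 1 nerve and 3 brown fat and heart markers was called. Ucp1, which defines brown fat, read 63.6 to 75.6 in 3 trained transgenic mice with a value, 66.6 to 843 in untrained transgenic mice, 90.9 to 1037 in trained wild-type mice and 54.6 to 726 in untrained wild-type mice. The summed brown fat and heart list spanned 636 to 2098 in trained and 552 to 1643 in untrained transgenic mice, and 781 to 2397 in trained and 561 to 2377 in untrained wild-type mice. No listed gene was at 0 on an array, and the part of these cells in the members' differences was not tested.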

How the data were processed

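Biotin-labelled total RNA was hybridised, per the labels. The authors deposited 1 intensity per probe set and array on a linear scale, already scaled between arrays, as read from array medians of 157 to 175. How probe sets were summarised and scaled, and why 1745 cells are empty, is not given in the sources used here. Groups came from titles and source names. They are contradicted by 1 description shared by all samples, which calls every sample transgenic and trained. The 39 members, the gene lists and the tests were chosen with earlier results of these data known.

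Intensities were used as deposited, as log2(intensity + 66.7), where the constant is the table's 20th percentile. After leaving out 64 control probe sets, 13576 with a mean at or above the 40th percentile went into a single limma model of the 4 groups (limma 3.58.1, R 4.3.3) with a variance trend, two-sided tests and Benjamini-Hochberg adjustment within each of 7 contrasts. Empty cells were left missing. The procedure was tested on simulated data. Symbols came from the platform annotation. Full values by mouse were given for up to 2 called members with the smallest p per role (1 where none passed), the 2 with the smallest p for transgene and interaction, the lowest training difference, and Ndufb10, Ndufs1, Ndufv1 and Ndufa4. Ndufs7 and Ndufs8 fall in with the Q module. Alternatives covered scaling, constant, filter, variance model, weights, probe set choice, empty cells, 2 covariates and leaving out each mouse. Replicates are separate mice, and the number of arrays limits the precision.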

Additional observations from a re-analysis of the deposited data

Results flagged for a closer look

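Within groups of 5 mice, a lowest or highest value was set against the rest by its gap to the nearest mouse over the whole range, with a critical value of 0.71, over 159 groups of member values and member means. Chance passes about 5% of such groups, and 6 did, all of them low values in 2 trained mice. TGT-133 read 2395 for Ndufb2 (2589 to 2640 in the other trained transgenic mice), 4755 for Ndufb5 (5347 to 5401), 2592 for Ndufs1 (2970 to 3071) and 3834 for Ndufs3 (4252 to 4344). WTT-144 read 4892 for Ndufa1 (5141 to 5191 in the other trained wild-type mice) and 3962 for Ndufb8 (4382 to 4547).

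Probe sets that name several genes lie outside the 39 members, and 2 of them passed the test for training. The probe set shared by Ndufs6b and Ndufs6 averaged 2750 intensity in trained and 2366 in untrained mice, a difference of 0.21 log2 (limma, adjusted p = 0.00503). The one shared by Ndufa11b and Ndufa11 averaged 2066 in trained and 1790.5 in untrained mice, a difference of 0.20 (limma, adjusted p = 0.0390). Which of the genes each reads cannot be told apart.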

How the results depend on the processing

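The direction of training, averaged over genotypes, held for the members in every alternative run except for Ndufb2 and Ndufa13: over 15 settings other than leaving out mice, the median difference of the members stayed between 0.13 and 0.18, and the sign turned for Ndufb2 (-0.0035 after quantile normalization, -0.049 with the clock score) and for Ndufa13 (-0.016 with the clock score). Leaving out 1 mouse moved Ndufb2 between -0.014 and 0.029. The count of members called for training averaged over genotypes, 17, was 10 with arrays centred on their medians, 10 of 27 members without probe sets that may bind several transcripts, 30 with array weights, 0 with the clock score as a covariate, and 11 to 21 without 1 mouse. The 3 calls in transgenic mice became 0 with arrays centred on their medians, no filter, the compared groups fitted alone, probe sets that may bind several transcripts left out or the clock score, 5 without the 2 arrays with most empty cells, 7 after quantile normalization, 8 with the Gapdh 3′ over 5′ ratio as a covariate, 24 with array weights, and 0 to 15 without 1 mouse. In wild-type mice the count was 3 with array weights and 0 otherwise. The counts for the transgene and the interaction were 0 in every alternative run. The causes were not tested. Across the 18 members with full values, 532 of 625 recomputed differences kept their call and sign, 68 lost their call and 13 gained one. The sign turned in 12, of which 10 came from leaving out 1 mouse. No paired analysis was possible because no number is shared between groups. Low signal limits the dim members, whose lowest mean was 145.3 against a filter of 126.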

Other observations

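Further probe sets that name several genes, and so lie outside the members, had training differences that limma did not call. The 2 shared by Ndufb4, Ndufb4b and Ndufb4c differed by 0.18 (adjusted p = 0.0800) and 0.13 (adjusted p = 0.122). The one shared by Ndufb2 and Adck2 differed by 0.084 (adjusted p = 0.484). The one shared by Ndufa13 and Yjefn3, a dim one with 186 intensity in trained and 181 in untrained mice, differed by 0.026 (adjusted p = 0.833). For Ndufs5 with Ndufs5-ps the difference was 0.18 (adjusted p = 0.269), and for Ndufab1 with Ndufab1-ps 0.20 (adjusted p = 0.145). Ndufs5 and Ndufab1 were themselves called from the single-gene probe sets used for the members.

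Of the members not called for training, 8 were called in at least 1 of the 20 fits without 1 mouse, among them Ndufa10 and Ndufs1, each in 3. The smallest adjusted p among members not called was that of Ndufa10, 0.0576.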
